A study of Homo sapiens with 2 samples.

Results

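The genes described here encode the alpha and beta tubulin isotypes of HEK293T, an established line derived from human embryonic kidney that also expresses large T antigen of SV40. The 10 genes, 4 for alpha tubulin and 6 for beta tubulin, were chosen by symbol from 57736 listed genes and matched to their Ensembl identifiers. RNA-Seq with 50 bp reads was run on poly(A)+ RNA. Both libraries belonged to 1 group, cells given 20 min of heat shock at 43 °C followed by a recovery of 6 h at 37 °C, and the replicates were lysed separately. Untreated cells of the study were not analysed here, so the values give the state after recovery and no change with heat shock. Replicate 1 held 22529828 expected counts and replicate 2 held 26890199. Across all genes the libraries differed with transcript GC content, and the values with that trend removed are given below for the tubulin genes. Of the 10 markers listed for the line, 8 were matched and all 8 reached a TPM (a transcript level scaled to length and to the library) of 1 in each library, led by VIM with a mean of 647, UCHL1 with 382 and KRT18 with 52.6. UCHL1 and NEFM (mean TPM 50.8), which neurons also express, are part of that list. The lowest of the 8 were KRT8 with a mean of 12.4 and PAX2 with 7.345. Of 7 matched markers of other cell types, 4 also reached a TPM of 1 in each library, and PTPRC was at 0. The highest were COL1A1 with a mean TPM of 22.5, HBA1 with 8.43 and ACTA2 with 7.47, each above PAX2.

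Microtubules are hollow polymers of a dimer of alpha and beta tubulin. Each subunit is encoded by several genes, the isotypes, whose proteins are close to identical in the folded core and differ most in the C-terminal tail, where many modifications are placed and where motors and severing enzymes bind. Cells hold their tubulin level in part by autoregulation: when free dimers are plentiful, TTC5 recognises the first residues of a tubulin chain as it leaves the ribosome, and the mRNA is degraded.

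The start of the coding sequence is shown because it encodes the residues recognised in autoregulation. Each line holds the first 30 coding bases of the reference transcript, 5′ to 3′ on the strand of the gene (GRCh37), with the first 12 bases in capitals.
TUBA1B: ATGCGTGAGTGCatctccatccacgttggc
TUBA4A: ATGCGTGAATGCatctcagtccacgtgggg
TUBB: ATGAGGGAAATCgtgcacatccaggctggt
TUBB2A: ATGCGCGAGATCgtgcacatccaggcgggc
TUBB2B: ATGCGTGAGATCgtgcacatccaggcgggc
TUBA1A and TUBA1C had the same 30 bases as TUBA1B. TUBA4A differed from TUBA1B at 5 of the 30 bases and TUBB2A differed from TUBB at 5 of them. In the alpha genes the first coding exon held 3 of these bases, whereas in the beta genes it held 57 coding bases.

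The end of the coding sequence is shown because it encodes the tail, and because it is a region where a 50 bp read can or cannot tell isotypes apart. Each line holds the last 60 coding bases before the stop codon of a beta gene, 5′ to 3′ on the strand of the gene (GRCh37). Capitals mark bases not matched in a global alignment of the coding sequences, to TUBB for TUBB2A, TUBB3 and TUBB4B, and to TUBB2A for TUBB2B.
TUBB (chr6:30692112-30692171, plus strand): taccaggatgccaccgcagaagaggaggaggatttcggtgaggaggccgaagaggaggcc
TUBB2A (chr6:3154100-3154159, minus strand): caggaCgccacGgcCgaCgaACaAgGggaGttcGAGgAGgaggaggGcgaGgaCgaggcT
TUBB2B (chr6:3224988-3225047, minus strand): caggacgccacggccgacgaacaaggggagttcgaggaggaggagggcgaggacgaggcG
TUBB3 (chr16:90002150-90002209, plus strand): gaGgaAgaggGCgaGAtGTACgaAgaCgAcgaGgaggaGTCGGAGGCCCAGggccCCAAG
TUBB4B (chr9:140137946-140138005, plus strand): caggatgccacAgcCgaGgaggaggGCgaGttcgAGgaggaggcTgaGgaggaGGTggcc
All of these bases lie in the last coding exon, exon 4 of the coding exons in each gene. TUBB3 had 32 unmatched bases against TUBB, and TUBB2B had 1 against TUBB2A. Over the whole coding sequence TUBB2A and TUBB2B were 98.2% identical, with 24 differences and a longest identical run of 725 bases. TUBA1A and TUBA1B were 97.2% identical and TUBA1B and TUBA1C 96.8%, whereas TUBA4A was 85.7% identical to TUBA1B. TUBB was 84.6% identical to TUBB2A and 81.0% identical to TUBB6.

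All 10 genes reached a TPM of 1 in each library, where 26.3% of all listed genes did. The levels spanned from TUBA1B, among the 43 highest genes of the table, to TUBB3, at place 9898. TPM is scaled to transcript length, so a comparison of levels between genes rests on the lengths used, which are described below.

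Among the alpha genes, TUBA1B (ENSG00000123416, chr12:49521565-49525180), the broadly expressed isotype, had 2601 TPM in replicate 1 and 2262 in replicate 2, with a mean of 2432 ± 240 (SD, n = 2). TUBA1C (ENSG00000167553, chr12:49582519-49668383), of the same gene cluster, had 1169 and 1069 TPM, with a mean of 1119 ± 70.3 (SD, n = 2). TUBA1A (ENSG00000167552, chr12:49578469-49582863), known for its role in the developing brain, had 255.9 and 223 TPM, with a mean of 240 ± 23.1 (SD, n = 2). The 3 levels kept this order in both libraries and their ranges did not overlap. TUBA4A (ENSG00000127824, chr2:220114432-220142624), an isotype encoded without the C-terminal tyrosine that the other 3 alpha chains carry, was lowest, at 35.5 and 35.2 TPM.

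Among the beta genes, TUBB (ENSG00000196230, chr6:30685212-30693315), the common isotype of dividing cells, had 1278 TPM in replicate 1 and 1139 in replicate 2, with a mean of 1208 ± 98.0 (SD, n = 2). TUBB4B (ENSG00000188229, chr9:140135739-140138159), another broadly expressed isotype that is also used in cilia, had 419 and 334 TPM. Its spread, a coefficient of variation of 16.1%, was the widest of the 10 genes. TUBB2B (ENSG00000137285, chr6:3223558-3231964) and TUBB2A (ENSG00000137267, chr6:3153731-3157778) are neighbours best known from neurons. TUBB2B had 134 and 109 TPM, and TUBB2A had 97.3 and 86.2. TUBB6 (ENSG00000176014, chr18:12307668-12344319) had 83.1 and 77.4 TPM. TUBB3 (ENSG00000258947, chr16:89987800-90005169), the isotype used as a marker of neurons, was lowest, at 7.78 and 7.61 TPM.

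**Figure D1:**
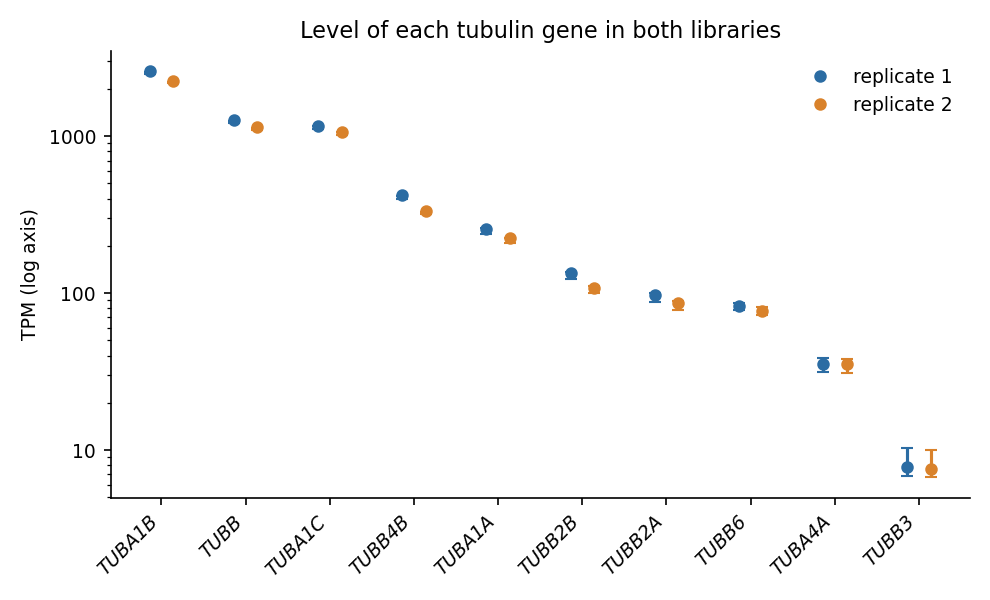
TPM of each tubulin gene (log axis) in replicate 1 and replicate 2 of the heat-shocked cells; points are the deposited TPM and bars the deposited credibility interval of the same gene and library. Levels fell from 2601 and 2262 TPM for TUBA1B to 7.78 and 7.61 for TUBB3.

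In the order of the levels, 7 of 9 pairs of neighbours were separated, with neither the ranges of the libraries nor the deposited credibility intervals overlapping. TUBB and TUBA1C were not separated over the libraries. TUBB was the higher within each library, by 1.09 times in replicate 1 and 1.07 times in replicate 2, but its level in replicate 2 lay below that of TUBA1C in replicate 1. TUBB2A and TUBB6 were not separated either, since their credibility intervals overlapped in replicate 2. The credibility interval is drawn around the posterior mean TPM, and the deposited TPM of the 4 highest genes lay above their own intervals in both libraries. For TUBA1B in replicate 1 the interval ran from 2483 to 2554 TPM. With CPM, counts scaled to the library total and not to length, TUBB (2387 and 2046) stood above TUBA1B (2053 and 1717). TUBA1C had 1063 and 926 CPM, so its closeness to TUBB in TPM rested on the lengths used. These averaged 0.41 of the reference transcript for TUBA1C and 0.94 for TUBB.

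Summed over the 4 alpha genes, TPM was 4061 in replicate 1 and 3589 in replicate 2. The 6 beta genes summed to 2019 and 1752. Together the 10 genes made 0.571% ± 0.0522 (SD, n = 2) of all TPM. The ratio of the alpha to the beta sum was 2.01 and 2.05, with a mean of 2.03 ± 0.0258 (SD, n = 2). This ratio rested on the lengths used. It was 1.01 in CPM, and 1.18 when the counts were divided by the length of the reference transcript. The length that RSEM deposits for a gene is an average over its transcripts weighted by their estimated abundance. Averaged over both libraries, this length was 0.63 of the reference transcript for TUBA1B, 0.41 for TUBA1C and 0.36 for TUBA4A. It was 0.94 for TUBB and 1.05 for TUBB2B.

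Within each family 1 gene made most of the sum. TUBA1B held 63.5% ± 0.73 (SD, n = 2) of alpha TPM, TUBA1C 29.3% ± 0.71, TUBA1A 6.26% ± 0.058 and TUBA4A 0.93% ± 0.076. TUBB held 64.1% ± 1.21 (SD, n = 2) of beta TPM and TUBB4B 19.9% ± 1.23. The remaining beta genes held 6.41% (TUBB2B), 4.87% (TUBB2A), 4.27% (TUBB6) and 0.41% (TUBB3). Divided by the length of the reference transcript, the share of TUBA1C was 21.4% and that of TUBA4A 0.58%. In CPM the share of TUBA1C was 32.0% and that of TUBB6 2.84%. The leading gene was thus the same in both libraries.

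**Figure D2:**
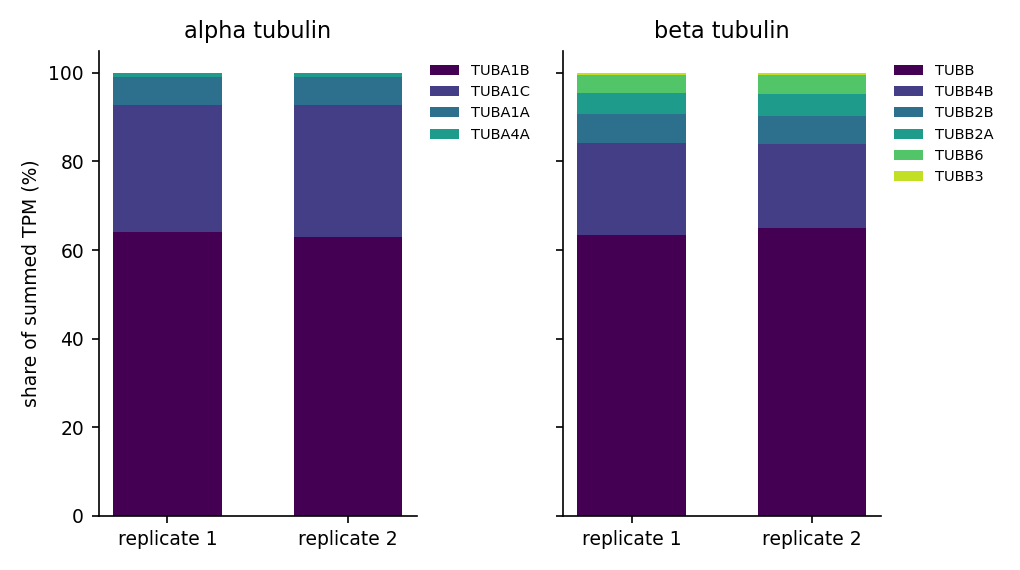
Share of the summed alpha (left) and beta (right) TPM held by each gene, as stacked bars for replicate 1 and replicate 2. TUBA1B held 64.1% and 63.0% of alpha TPM, and TUBB held 63.3% and 65.0% of beta TPM.

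Reads that match several genes were shared among them by the authors' quantifier, and the posterior SD of a count gives how firmly that sharing was settled. In percent of the count it was highest for TUBB3, at 6.29 in replicate 1 and 5.56 in replicate 2. TUBB2A followed with 2.83 and 2.74, TUBB2B with 1.94 and 2.02, and TUBA1A with 1.09 and 1.09. It was lowest for TUBB4B, at 0.13 and 0.14, and for TUBB, at 0.28 and 0.27. All 10 genes lay above 0.0328%, the median over 12014 genes with at least 100 counts in both libraries. It was larger than the counting error, the square root of the count, for 4 genes in both libraries, TUBA1B, TUBA1C, TUBB2A and TUBB2B. For TUBB2A it was 1.48 times the counting error in replicate 1 and 1.44 times in replicate 2. For TUBB4B it was 0.15 times in each.

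The sequences of the reference transcripts were searched for stretches of 50 bases that also occur in another listed gene, on either strand. In the reference transcript alone, such stretches made 92.8% of TUBB3, 87.1% of TUBA1B, 64.6% of TUBB2A and 54.9% of TUBB2B, against 15.3% of TUBB4B. Over all transcripts of a gene, such stretches made 58.0% of the sequence of TUBB2A, 56.4% of TUBB2B and 38.7% of TUBA1B, against 11.4% of TUBB4B. Across the 10 genes Spearman's rho between this share and the relative posterior SD was 0.68 in replicate 1 and 0.67 in replicate 2. The points share their libraries and, in part, the same sequences, so this is a description over 10 genes.

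**Figure D3:**
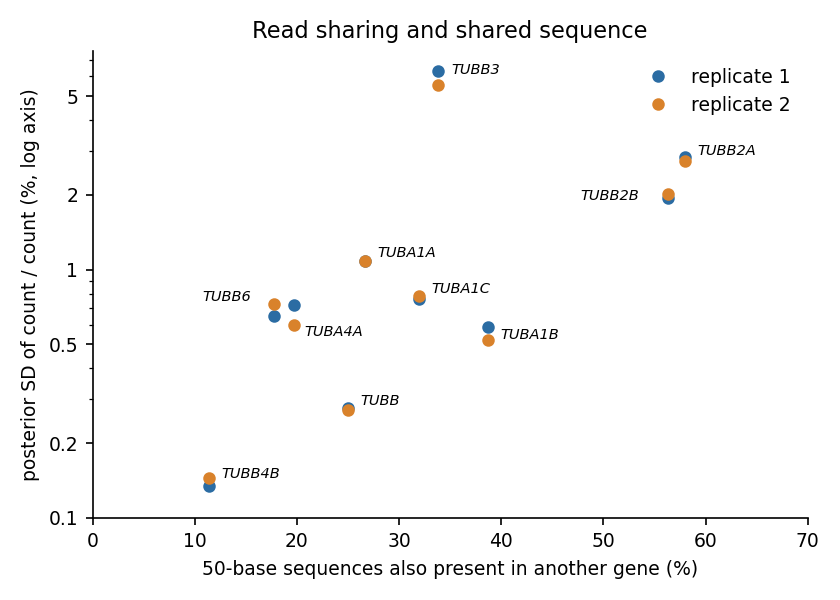
Posterior SD of the count in percent of the count (log axis) against the percentage of 50-base sequences of a gene that occur in another gene, for each tubulin gene in replicate 1 and replicate 2. TUBB2A and TUBB2B lie at the right, TUBB4B at the lower left, and TUBB3 has the highest posterior SD at 33.8% shared sequence.

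The genes sharing these sequences differed from member to member. TUBB2A and TUBB2B shared 59.5% and 49.8% of their reference transcripts with each other, and both shared sequence with the pseudogene TUBB2BP1, which had 41.6 and 32.5 TPM. Of the reference transcript of TUBB3, 92.8% occurred in ENSG00000198211, an overlapping gene on the same strand with no symbol in the annotation used. That gene was given 21.2 and 24.9 counts, with posterior SDs of 18.2 and 17.5, against 203 and 221 counts for TUBB3. TUBB6 shared 1.09% of its reference transcript, the smallest share. Over all its transcripts the share was 17.7%. AFG3L2, on the opposite strand, held 17.3% and was given 1713 and 1839 counts.

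TUBA1B shared sequence with an antisense gene. TUBA1B-AS1 (ENSG00000258017, chr12:49521565-49582267, plus strand) holds 68.7% of the 50-base sequences of the TUBA1B reference transcript on the opposite strand. It was given 31492 counts in replicate 1 and 30235 in replicate 2, against 46250 and 46172 for TUBA1B, and 2049 and 1724 TPM. ENSG00000272540, antisense to TUBB, was given 2226 and 2363 counts, against 53786 and 55017 for TUBB. How strand was treated in counting is not stated by the sources used here. Without strand, reads that lie in sequence shared by a gene and its antisense partner cannot be told apart. With the TPM of TUBA1B-AS1 added to TUBA1B as 1 locus, and none to TUBA1A or TUBA1C, TUBA1B held 75.6% of alpha TPM. TUBA1C then held 19.6%. The alpha to beta ratio was then 3.03. These sums were chosen after seeing the data. TUBA4A overlaps STK16 in the same way, with 28.95% of its reference transcript found there on the opposite strand. STK16 was given 535 and 518 counts, against 457 and 499 for TUBA4A.

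**Figure D4:**
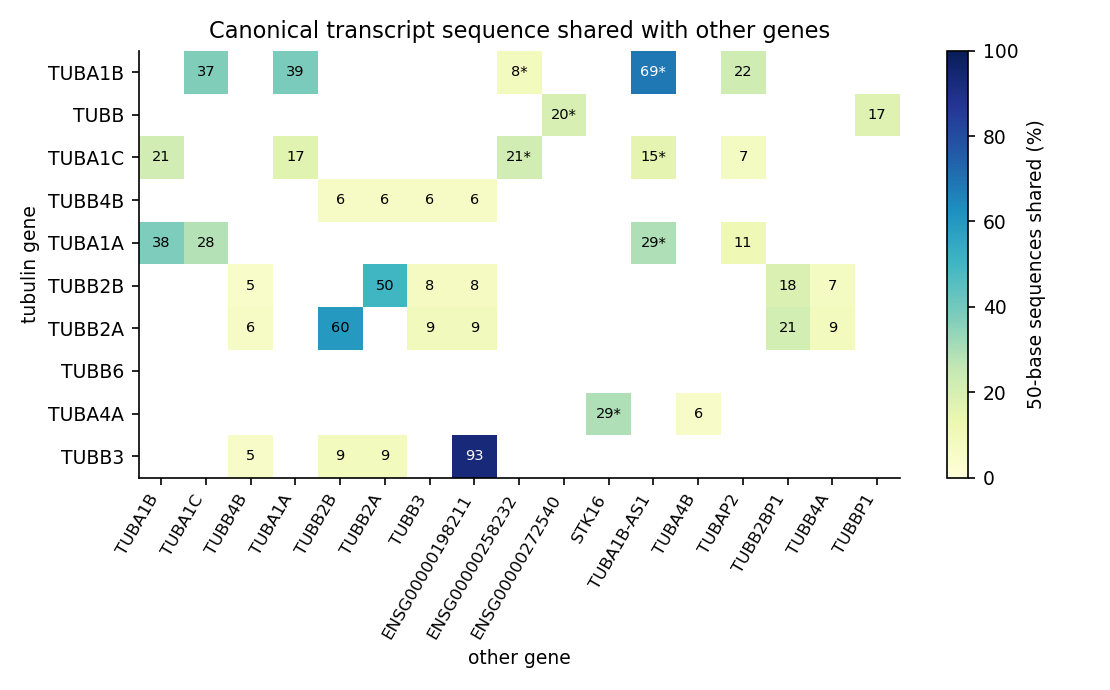
Percentage of the 50-base sequences of each tubulin gene's reference transcript (rows) found in another gene (columns), for values of at least 5; an asterisk marks sequence found on the opposite strand. The darkest cells are TUBB3 with ENSG00000198211 (92.8%) and TUBA1B with TUBA1B-AS1 (68.7%), and TUBB6 has none.

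The replicates were then compared gene by gene with an exact two-sided binomial test on the rounded counts, scaled by edgeR's TMM factors, with Benjamini-Hochberg adjustment over 19714 genes. This test compares 2 libraries of 1 condition, and it measures counting error only. It called 8 of the 10 tubulin genes, all lower in replicate 2, where it called 42.2% of all genes and 20.1% as higher in replicate 1. Among the 7974 genes whose counts over both libraries reached 1000, which include the 8 called genes, 70.6% were called. The log2 ratio of replicate 2 over replicate 1 ran from -0.42 for TUBB4B (adjusted p = 5.91e-109, exact binomial test) and -0.40 for TUBB2B to -0.15 for TUBA4A (adjusted p = 0.184, exact binomial test), with a median of -0.26, against a median of 0.02 over all genes tested. TUBB3, at -0.16, was the other gene not called (adjusted p = 0.404, exact binomial test).

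The GC content of all 10 genes, from 50.2% for TUBA1A to 61.8% for TUBB3, was above the median of 49.9% over the 13619 genes whose summed count reached 100. With the GC trend of all genes removed, 6 of the 10 were called, all lower in replicate 2, where 28.8% of all genes were called and 14.3% as higher in replicate 1. Among genes whose counts over both libraries reached 1000, 49.8% were called in this test, against 6 of the 8 tubulin genes at that depth. TUBB2B then had a log2 ratio of -0.23, TUBB4B -0.21, TUBA1A -0.20, TUBB -0.16, TUBA1C -0.14 and TUBA1B -0.12. The median over the 10 genes was -0.13, against 0.02 over all genes tested. TUBB2A (-0.08, adjusted p = 0.122) and TUBB6 (-0.04, adjusted p = 0.601) were no longer called in that exact binomial test, and TUBA4A (0.03) and TUBB3 (0.07) changed sign without being called. When edgeR's exact test was run with the biological coefficient of variation set at 0.1, 0 of the 10 genes were called and 1 had an unadjusted p under 0.05, where 7.69% of all genes were called. The coefficient that edgeR estimated from both libraries was 0.202.

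**Figure D5:**
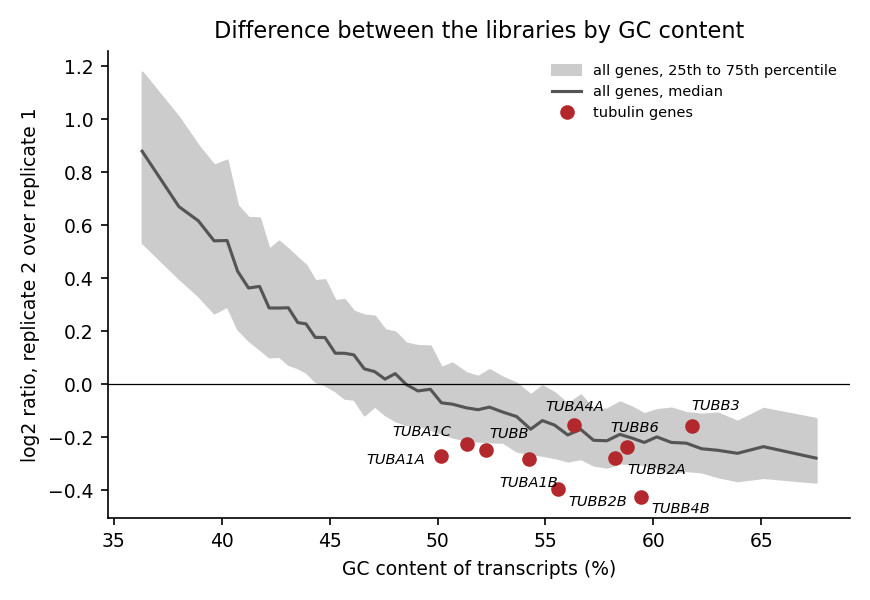
Log2 ratio of replicate 2 over replicate 1 against GC content for the tubulin genes (points) and for all genes whose summed count reached 100 (line, median of each of 50 classes; band, 25th to 75th percentile). All 10 tubulin genes lie below 0, TUBB4B at -0.42 the lowest.

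Other tubulin genes were mostly low. Among the other beta genes, TUBB4A, a brain isotype, had 108 and 95.03 TPM, between TUBB2B and TUBB2A in mean level, and TUBB1, the isotype of platelets, had a mean of 0.19. TUBB8 was not matched. TUBB8B, outside the list and named after its values were seen, had 3.97 and 3.65 TPM. Among the other alpha genes, TUBA8 had 3.78 and 3.09 TPM, TUBA3D a mean of 0.87 and TUBA3E 0.08, and TUBA3C and TUBAL3 were listed at 0 in both libraries. Of 47 tubulin pseudogenes, 4 reached a TPM of 1 in each library and 28 were at 0 in both, and their sum was 1.17% of that of the 10 genes in each library. The highest were TUBB2BP1 (mean TPM 37.1), TUBBP5 (18.3), TUBA5P (5.93), TUBB8P7 (1.53) and TUBB8P2 (0.89, from 0.37 in replicate 1 and 1.4 in replicate 2).

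Of the other tubulin superfamily, TUBG1, the gamma tubulin that nucleates microtubules, had 304 and 262 TPM, TUBE1 a mean of 29.7, TUBD1 16.8 and TUBG2 8.52. All 9 matched genes of the gamma tubulin ring complex had a TPM of at least 1, the highest being MZT2B with a mean of 104, MZT2A with 67.2 and TUBGCP2 with 64.3. All 6 matched folding cofactors, which fold and pair the subunits, did too, led by TBCA (219), ARL2 (104) and TBCD (72.5). Of 25 matched modifying enzymes 17 did, led by TTLL12 (117), AGBL5 (84.8), a deglutamylase, and TTLL4 (74.97), a glutamylase. Of 21 matched regulators of dimers and microtubules 17 did, led by STMN1 (478), which binds free dimers, and the microtubule binding proteins MAPRE2 (174) and MAP4 (174). TTC5, the factor of autoregulation, had 11.6 and 9.21 TPM. It was named after its values were seen. Between the libraries, 3 of the 9 ring complex genes were called higher in replicate 1 and 3 higher in replicate 2, and the cofactors gave 3 and 1 of 6. The modifying enzymes gave 6 and 5 of 21 tested, and the regulators 7 and 4 of 18 tested. Over all genes tested, 20.1% were called higher in replicate 1 and 22.1% higher in replicate 2. With the GC trend removed these counts were 3 and 1, 4 and 0, 1 and 3, and 6 and 1, and the shares over all genes 14.3% and 14.5%.

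The protein-coding genes whose levels lay nearest to TUBA1B, by distance of log2(TPM + 1) over both libraries, were GAPDH (2638 and 2324 TPM, distance 0.044), MIF (2856 and 2155, distance 0.15) and RPL24 (2367 and 2153, distance 0.15). Those nearest to TUBB were RPL37 (1263 and 1123 TPM, distance 0.027), HNRNPC (1318 and 1163, distance 0.053) and RPSA (1239 and 1111, distance 0.057). With only 2 libraries, nearness is nearness in level.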

How the data were processed

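Poly(A)+ RNA of 2 replicates of heat-shocked HEK293T cells was sequenced by the authors. The time of heating is that of the labels; the study's text gives a longer one for its heat shock. The molecule is labelled genomic DNA, although the labels' protocol describes poly(A)+ RNA. The submitters' processing notes name Trimmomatic 0.36, STAR 2.6.1c and RSEM 1.3.1 with GRCh37, while the study's methods name featureCounts. The deposited expected counts, in which the authors' quantifier shared reads among genes, were rounded for tests. The deposited TPM and FPKM values are scaled to length by the authors. Lengths, posterior mean counts and TPM, posterior SDs and credibility bounds were also deposited; the sources used here state neither the level of the bounds nor the strand setting. The authors' table of the whole series was not used here.

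Gene names, positions, transcripts and GC content came from GENCODE on GRCh37, another release than the authors'. Of the identifiers, 96.1% were matched. Shared sequences were identical 50-base stretches of listed transcripts. The ends of the alpha coding sequences are not reported here. Log2 ratios used TMM-scaled counts with a pseudocount of 0.5. The binomial test took genes whose summed count reached 10, and an adjusted p under 0.05 was called. TMM factors were taken over the whole table. They were first taken over the tested genes alone, and the choice was made after both results had been seen, following the planned fit over the whole table. The GC trend was the median of 50 classes. At 0 counts, up to 3 counts (0.133 and 0.112 CPM) were allowed for counting error only. The binomial test was checked on counts simulated with counting error alone. That check held no GC trend and no spread between replicates, so it does not cover these. With 1 group, no test between conditions was possible. The p-values of the binomial test weigh the difference between these libraries against counting error only. R 4.3.3, edgeR 4.0.16, DESeq2 1.42.0, Python 3.11.15, scipy 1.17.1 and Biopython 1.88 were used.

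The members and the gene lists were chosen with earlier results of these data known. Genes were named by a rule: all 10 members; every other alpha and beta tubulin gene; the 5 tubulin pseudogenes of highest mean TPM; the 3 highest genes of each further list of tubulin-related genes; and the 3 protein-coding genes nearest in level to TUBA1B and to TUBB. Genes that share sequence with a member, and TTC5, were named after their values were seen. Alternatives covered units, pseudocounts, filters, scaling, the GC trend, the genes summed, lengths, shared sequences and leaving out each replicate.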

Additional observations from a re-analysis of the deposited data

How the results depend on the processing

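The alpha sum was 3029 in FPKM, 3116 in CPM, 5280 in TPM over protein-coding genes and 5712 TPM with TUBA1B-AS1 added, and the beta sum was 1494, 3089 and 2603 in the first 3 of these. The alpha to beta ratio was 1.01 in CPM, 1.93 with the other tubulin genes, 1.97 with pseudogenes, 3.03 with TUBA1B-AS1, 2.79 with TUBA1B-AS1 and ENSG00000272540, and 1.18 per reference length. TUBA1B held 60.5% in CPM, 70.2% per reference length and 75.6% as 1 locus, and TUBB held 71.8% and 62.9% in the first 2 of these. TUBA1C held 32.0% in CPM, 21.4% per reference length and 19.6% as 1 locus. TUBA4A held 0.58% per reference length and TUBB6 2.84% in CPM. Spearman's correlation of posterior SD with shared sequence was 0.667 for reference transcripts and 0.691 for the same strand. Canonical lengths, antisense sums and these 2 correlations were chosen after seeing the data. Of the log2 ratios, TUBA4A (0.026) and TUBB3 (0.071) changed sign with the GC trend removed. The count of tubulin genes called was 0 in the edgeR exact test, and 6 to 8 under the other settings. With TMM factors from the tested genes alone (a summed count of 10 or more), an alternative added after seeing the data, 8498 genes were called in place of 8314, 4378 of them higher in replicate 1 in place of 3959, and the same number of tubulin genes, 8. No paired analysis was possible because both libraries belong to 1 group. Depth limits TUBB3 most, with 203 and 221 counts.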
